A study of Mus musculus with 12 samples.

Results

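Collagens are secreted proteins of the extracellular matrix in which chains wind into a triple helix. Fibrillar collagens such as types I, III and V assemble into the fibrils that stiffen tissue, and in tumours they are made mainly by fibroblasts. Type IV collagen forms the network of basement membranes, FACIT collagens (fibril-associated collagens with interrupted triple helices) sit on the surface of fibrils, and the remaining types include the beaded filaments of type VI and collagens that span the cell membrane. The genes described here are the 44 rows of a count table of 57186 genes that carry a mouse protein-coding symbol of the form Col, a type number, the letter a and a chain number. By class they are 11 fibrillar, 9 basement membrane, 9 FACIT and 15 other genes.

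RNA was measured in 12 mouse breast tumours grown from 4T1, a mammary carcinoma cell line. The 6 WT tumours came from the parental cells and the 6 Tn tumours from 4T1 cells in which Cosmc had been silenced by CRISPR/Cas9. The product of Cosmc (gene symbol C1galt1c1) is needed to fold the galactosyltransferase that elongates mucin-type O-glycans, and cells that lack it display the truncated Tn antigen. Both groups share the cell line and the tissue, the tumours were chosen across tumour sizes, and the labels used here give no strain, age, sex or clonal origin of the edited cells. Each tumour is described in the labels as a biological replicate. C1galt1c1 was read at no less than 15.5 CPM (counts scaled to a common library size) in any WT tumour and at no more than 12.9 CPM in any Tn tumour, so the groups did not overlap, although transcripts remained in every Tn tumour. Libraries held 113575859 to 156880766 counts. The number in the library name ran from 2 to 12 for Tn and from 17 to 24 for WT tumours, and an effect of that order cannot be told apart from the group. In bulk tissue, fewer cells of a type and less RNA per cell cannot be told apart either. Summed epithelial marker genes of the carcinoma (Epcam, Krt8, Krt18, Krt19, Krt7 and Cdh1) ran from 2157 to 4525 CPM in WT and from 1985 to 3393 CPM in Tn tumours, a sum set mostly by Krt8 and Krt18. Of these 6 genes, all with log2 fold changes below 0, Krt7 (-1.45, edgeR adjusted p = 0.00609) and Krt19 (-2.07, edgeR adjusted p = 0.0339) were lower and 0 were higher. By the same test 17.4% of all tested genes were lower and 19.5% were higher.

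Collagen transcripts made up a smaller part of Tn tumours than of WT tumours. They took 1.495% to 3.05% of all counts in the 6 WT libraries, with a median of 2.17%. In the 6 Tn libraries they took 0.649% to 0.961%, with a median of 0.815%. The highest Tn tumour lay below the lowest WT tumour. WT tumour 2 was the highest and WT tumour 1 the lowest of the WT group. The classes did not shrink evenly. Fibrillar genes supplied 55.4% to 71.7% of collagen counts in WT tumours and 43.7% to 53.9% in Tn tumours. Basement membrane genes went from 13.1% to 23.6% in WT up to 25.4% to 31.9% in Tn tumours. The other collagens went from 8.25% to 10.7% up to 13.1% to 15.9%, while FACIT genes overlapped at 6.18% to 10.3% and 6.64% to 10.9%. These shares are descriptions and depend on the length of each transcript.

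**Figure D1:**
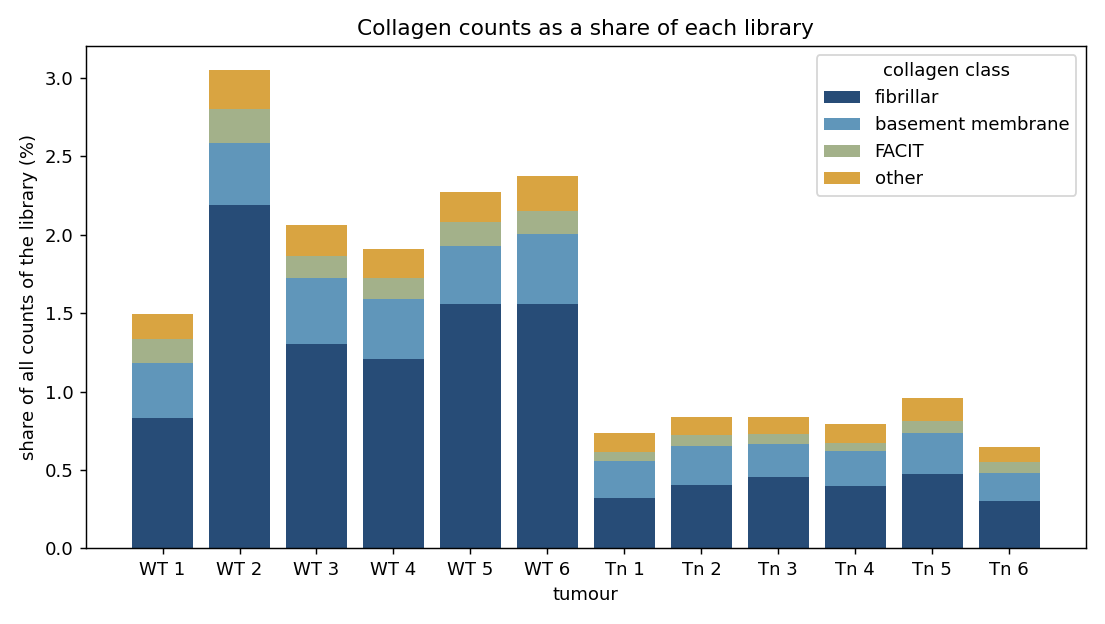
Bars give the collagen counts of each tumour as a percentage of all counts of its library, stacked by class. The 6 WT tumours reach 1.495% to 3.05% and the 6 Tn tumours 0.649% to 0.961%, and the fibrillar segment (dark blue) differs most.

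Of the 44 genes, 41 had enough counts for the test, and all 41 are counted here whether or not they differed. By edgeR's quasi-likelihood test over 19255 genes, with a threshold of 0.05 on the Benjamini-Hochberg adjusted p, 23 were lower in Tn tumours, 3 were higher and 15 did not pass, while 36.8% of all tested genes passed in either direction. That is 56.1% of the tested collagens lower and 7.32% higher, where 17.4% of all tested genes were lower and 19.5% were higher. Of the 23, 19 were at least 2-fold lower, a change that 7.13% of all tested genes showed. In 16 collagens every Tn tumour lay below every WT tumour, as it did in 8.35% of all tested genes, and in 2 every Tn tumour lay above every WT tumour, against 8.81% of all. The median log2 fold change, Tn over WT, was -0.97 for the collagens and 0.01 for all tested genes. Among the 17 tested collagens with a mean of at least 100 CPM, 13 were lower and 0 were higher. Col19a1 and Col22a1 of the FACIT class and Col26a1 of the other class were too low to test, with means of at most 0.142 CPM in either group.

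**Figure D2:**
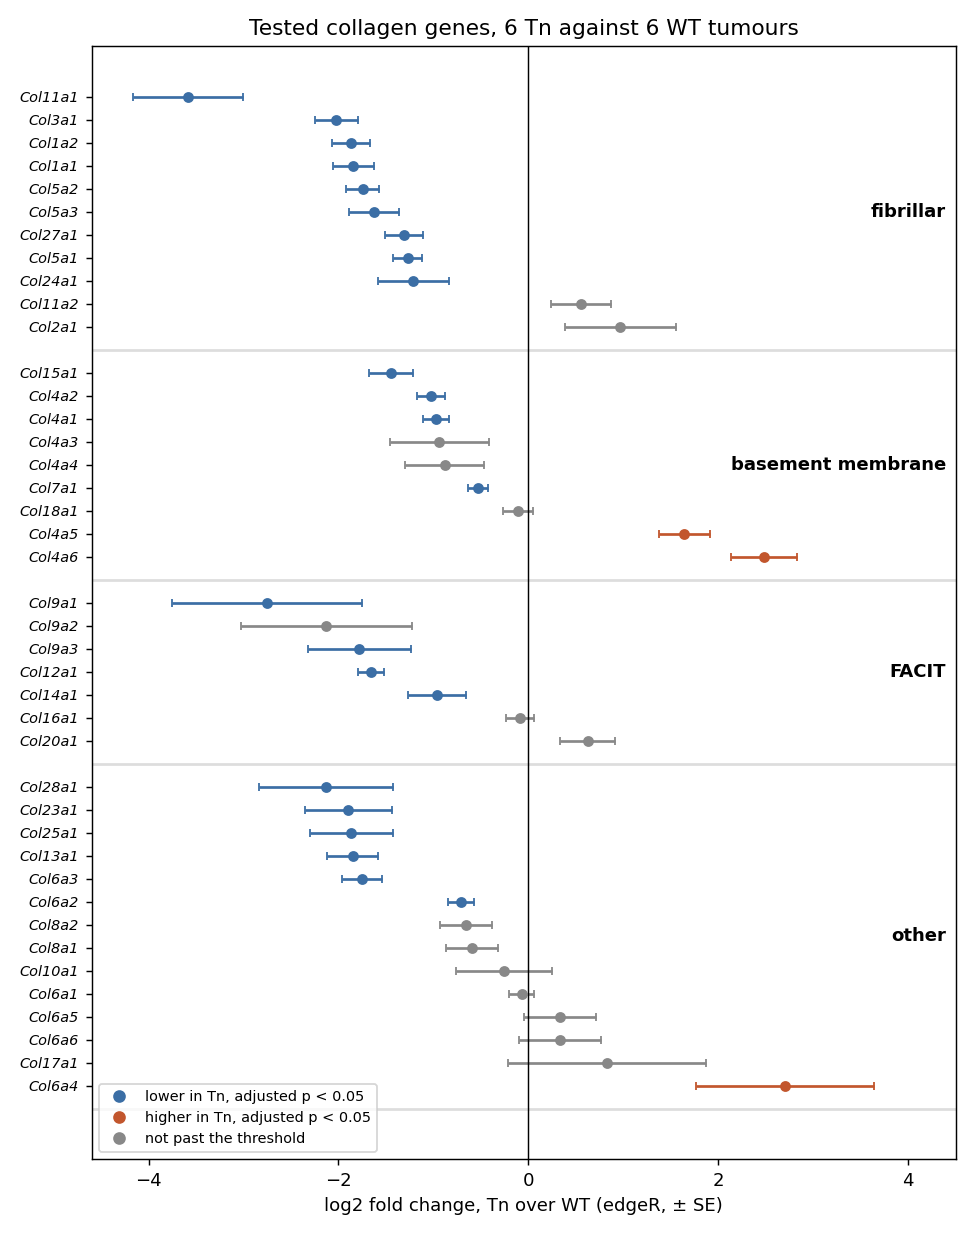
Points give the log2 fold change, Tn over WT, of each of the 41 tested collagens by class, with bars of 1 standard error. Blue marks genes lower in Tn tumours, orange marks genes higher and grey marks genes that did not pass; 9 of the 11 fibrillar genes are blue, and both orange basement membrane genes are type IV chains.

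Fibrillar collagens fell almost as a class: 9 of 11 tested members were lower in Tn tumours, 0 were higher, and the median log2 fold change was -1.62. All 9 were at least 2-fold lower, and in 8 of them no Tn tumour reached the lowest WT tumour. Of all tested genes 17.4% were lower, 19.5% were higher and 7.13% were at least 2-fold lower. In 8.35% of all tested genes every Tn tumour lay below every WT tumour. Col1a1, which encodes the major chain of type I collagen, was read at 2841 CPM in the lowest WT tumour, at a median of 5165 and at 7921 in the highest. In Tn tumours it ran from 1119 through a median of 1392 to 1882 CPM. The groups were separated by a gap, and the Tn mean was 27.9% of the WT mean (log2 fold change -1.84 ± 0.22 SE, edgeR adjusted p = 0.000111). Its partner chain Col1a2 ran from 2077 through 3379 to 5042 CPM in WT and from 679.7 through 966.8 to 1191 CPM in Tn tumours (-1.87 ± 0.20, edgeR adjusted p = 5.94e-05). Col3a1, the only chain of type III collagen, which forms fibrils with type I, ran from 1759 through 3492 to 5279 CPM in WT and from 740.9 through 805.8 to 1092 CPM in Tn tumours (-2.02 ± 0.22, edgeR adjusted p = 7.75e-05). All 3 genes were highest in WT tumour 2 and lowest among WT in tumour 1, and even that tumour stood above all Tn tumours.

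Type V collagen sits in the core of type I fibrils and starts their assembly. Col5a2 ran from 771.1 through 981.5 to 1260.1 CPM in WT and from 191.9 through 284.2 to 420.9 CPM in Tn tumours (-1.75 ± 0.17, edgeR adjusted p = 3.99e-05). Col5a1 ran from 465.8 through 767.1 to 1045 CPM in WT and from 284.3 through 328.8 to 369.1 CPM in Tn tumours (-1.27 ± 0.16, edgeR adjusted p = 0.000122). For both genes the groups were apart, with a narrower gap for Col5a1. The third type V chain, Col5a3, fell by 1.62 on the log2 scale, and Col27a1, a fibrillar chain of cartilage and other tissues, fell by 1.31. Col11a1, a minor fibril chain often followed in fibroblasts of carcinomas, had the largest fall of the class and is described for that reason, after its values were seen. It ran from 10.2 through 15.7 to 26.3 CPM in WT and from 0.119 through 1.38 to 2.81 CPM in Tn tumours. Its Tn mean was 8.33% of the WT mean (log2 fold change of -3.59 to 2 decimals, SE 0.58, edgeR adjusted p = 0.000724). Col24a1 was also lower (-1.21, edgeR adjusted p = 0.0239) with overlapping groups. That call did not pass without WT tumour 2, WT tumour 5, Tn tumour 1 or Tn tumour 2 (edgeR adjusted p of at most 0.0573). It also failed with a term for the replicate number (edgeR adjusted p = 0.067). The cartilage chains Col2a1 (0.97 ± 0.59) and Col11a2 (0.56 ± 0.32) stayed near the floor, at no more than 3.38 CPM in any tumour, and did not pass.

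Some tumours were repeatedly at the edge of their group. WT tumour 2 was the highest WT tumour for 8 of the 9 genes that fell, and WT tumour 1 the lowest for 8. Among Tn tumours, tumour 5 was highest for 6 and tumour 6 lowest for 6. These genes share libraries and scaling, so this is a description of the tumours.

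**Figure D3:**
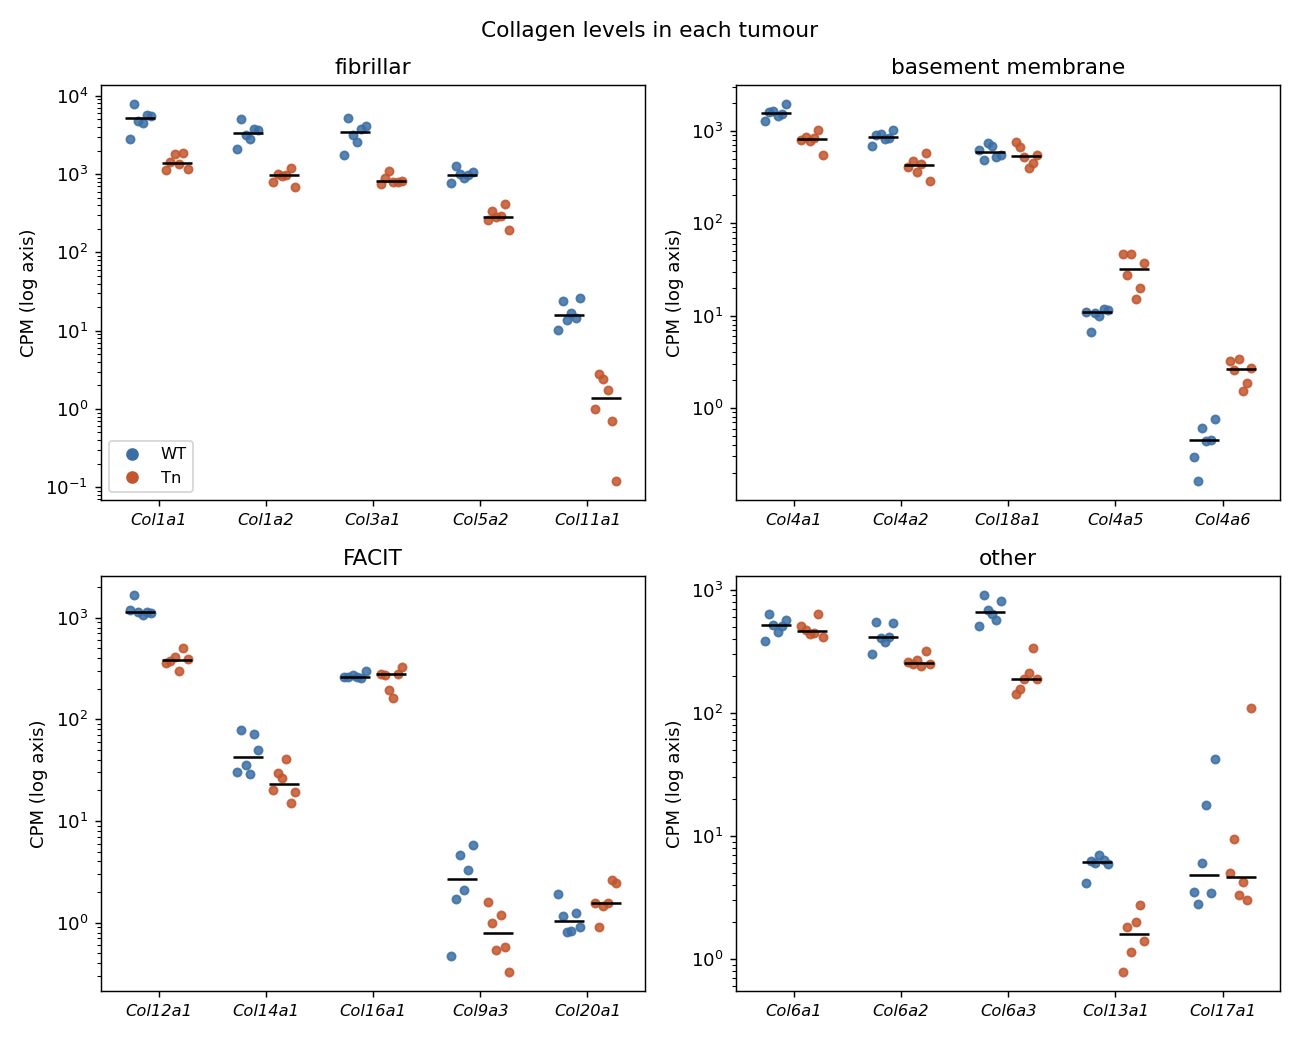
Each point is the TMM-scaled CPM of a gene in a tumour on a log axis, blue for WT and orange for Tn, with a bar at the group median, for 5 genes of each class. Col1a1, Col1a2, Col3a1, Col5a2 and Col11a1 separate downward, Col4a5 and Col4a6 separate upward, and Col18a1, Col16a1 and Col6a1 overlap.

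The start regions of genes that moved together and of the pair that moved the other way are shown for reference. Each line is the 150 bases upstream of the canonical GENCODE M39 transcript start on GRCm39, 5′ to 3′ on the strand of the gene, and capitals mark the CCAAT box (read as ATTGG from the other strand), the TATAAA box (read as TTTATA) and the GC box GGGCGG (read as CCGCCC). The first 3 genes fell and the last 2, type IV chains described below, rose.
Col1a1, chr11:94826900-94827049, plus strand: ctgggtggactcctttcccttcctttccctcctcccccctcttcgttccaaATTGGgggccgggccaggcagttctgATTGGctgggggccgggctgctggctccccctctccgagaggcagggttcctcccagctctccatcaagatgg
Col3a1, chr1:45350548-45350697, plus strand: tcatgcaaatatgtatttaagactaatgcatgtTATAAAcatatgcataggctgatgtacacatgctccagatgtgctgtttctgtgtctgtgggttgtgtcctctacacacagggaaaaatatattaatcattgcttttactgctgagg
Col5a2, chr1:45542443-45542592, minus strand: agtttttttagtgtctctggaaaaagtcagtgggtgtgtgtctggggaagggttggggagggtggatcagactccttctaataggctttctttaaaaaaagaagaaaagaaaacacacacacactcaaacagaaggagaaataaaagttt
Col4a5, chrX:140258204-140258353, plus strand: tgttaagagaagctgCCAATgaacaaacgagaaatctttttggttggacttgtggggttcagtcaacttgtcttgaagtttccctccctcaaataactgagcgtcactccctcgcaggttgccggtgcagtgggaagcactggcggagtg
Col4a6, chrX:140257073-140257222, minus strand: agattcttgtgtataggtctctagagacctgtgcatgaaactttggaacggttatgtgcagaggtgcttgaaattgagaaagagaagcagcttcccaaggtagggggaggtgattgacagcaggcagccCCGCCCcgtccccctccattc
The Col1a1 window holds 2 copies of CCAAT on the opposite strand, and the Col5a2 window holds none of the 3 motifs. The Col3a1 window holds a TATAAA that begins at -117 relative to the transcript start. Over the whole family, CCAAT was found in 11 of 44 windows (25.0%) and in 27.7% of 21770 protein-coding windows of the same length. TATAAA was found in 6 of 44 (13.6%) against 7.29%, and GGGCGG in 20 of 44 (45.5%) against 32.6%. These are matches of letters and not measured binding sites.

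Of 9 tested basement membrane collagens 4 were lower in Tn tumours, 2 were higher and 3 did not pass, where 17.4% of all tested genes were lower and 19.5% higher. The share of higher genes is thus near that of all genes, and the 2 are described for their own values. The main type IV chains, Col4a1 and Col4a2, which pair in nearly all basement membranes, fell to about the same extent. Col4a1 ran from 1272 through 1560.3 to 1961 CPM in WT and from 546 through 815.9 to 1012 CPM in Tn tumours (-0.97 ± 0.14, edgeR adjusted p = 0.0003). Col4a2 ran from 688.9 through 864.8 to 1009.9 CPM in WT and from 288.3 through 423.1 to 575.7 CPM in Tn tumours (-1.03 ± 0.15, edgeR adjusted p = 0.000338). No Tn tumour reached the lowest WT tumour for either chain. These genes lie head to head on chromosome 8 and share 22 bases in the annotation used for counting. In GENCODE M39, where Col4a2 starts further upstream, exons of other genes cover 4.94% of the exonic bases of Col4a1. Col15a1, a proteoglycan collagen that ties basement membranes to fibrils, ran from 239 through 392 to 501 CPM in WT and from 72.2 through 148 to 195 CPM in Tn tumours (-1.45 ± 0.23, edgeR adjusted p = 0.000696). Col7a1, the chain of anchoring fibrils under epithelia, was lower by less, from 408 to 614 CPM in WT and from 291 to 393 CPM in Tn tumours (-0.53 ± 0.10, edgeR adjusted p = 0.00195).

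Col4a5 and Col4a6, chains that replace Col4a1 and Col4a2 in certain basement membranes, were higher in Tn tumours. Col4a5 ran from 6.65 through 10.8 to 11.8 CPM in WT and from 15.3 through 32.0 to 46.5 CPM in Tn tumours (1.64 ± 0.27, edgeR adjusted p = 0.000768). Col4a6 ran from 0.161 through 0.447 to 0.765 CPM in WT and from 1.53 through 2.63 to 3.38 CPM in Tn tumours (2.48 ± 0.35, edgeR adjusted p = 0.000286). All 6 Tn tumours were above all 6 WT tumours for both, and Tn tumours 4 and 5 were the lowest Tn tumours for Col4a5. The genes are neighbours on the X chromosome, at 140258381 to 140472230 for Col4a5 and at 139948399 to 140257072 for Col4a6 on GRCm39, transcribed away from each other across a gap of 1308 bases, with no other gene annotated over their exons. The remaining pair of type IV chains, Col4a3 and Col4a4, is also head to head, 71 bases apart on chromosome 1, but stayed at or below 0.436 CPM in every tumour and did not pass (-0.94 ± 0.52 and -0.88 ± 0.41). Basal epithelial cells are a known source of Col4a5 and Col4a6. Of 10 keratinocyte markers, including Krt5 and Krt14, 6 could be tested, 0 were higher and 0 were lower. Their summed level was 53.5 to 864 CPM in WT tumours and 16.7 to 3483 CPM in Tn tumours. In Tn tumours 1 to 6 the keratinocyte sum was 16.7, 131, 20.9, 89.0, 139 and 3483 CPM. Col4a5 in the same order was 46.5, 27.4, 46.2, 15.3, 19.8 and 36.7 CPM. The part of these cells in the result was not tested. Col18a1, whose cleavage yields endostatin, overlapped between groups, from 485.1 through 586.1 to 741.8 CPM in WT and from 396.8 through 532.6 to 762.6 CPM in Tn tumours (-0.11 ± 0.16, edgeR adjusted p = 0.622). Exons of Slc19a1 cover 12.8% of the exonic bases of Col18a1, and since strand was not used in counting, reads there cannot be told apart.

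Among FACIT collagens 4 of 7 tested genes were lower in Tn tumours and 0 were higher, against 17.4% and 19.5% of all tested genes. Col12a1, which bridges type I fibrils in tissue under load, stood out from the rest of the class in level and in separation. It ran from 1066 through 1149 to 1687 CPM in WT and from 298 through 380.3 to 497.5 CPM in Tn tumours, and the Tn mean was 31.6% of the WT mean (-1.66 ± 0.14, edgeR adjusted p = 1.41e-05). No Tn tumour reached the lowest WT tumour, and WT tumour 2 stood apart at the upper end of its group. Col14a1, a related chain of fibril surfaces, ran from 28.9 through 43.0 to 78.4 CPM in WT and from 15.1 through 23.3 to 41.1 CPM in Tn tumours (-0.96 ± 0.30, edgeR adjusted p = 0.0271). Its groups overlapped, and the call ended with WT tumour 2, WT tumour 5, Tn tumour 1, Tn tumour 5 or Tn tumour 6 left out, or with no filter on low counts (edgeR adjusted p of at most 0.0676). It also ended with a term for the replicate number (edgeR adjusted p = 0.0693). Col16a1 was close in both groups, from 257.3 through 262.6 to 301.0 CPM in WT and from 163.6 through 276.2 to 329.3 CPM in Tn tumours (-0.09 ± 0.14, edgeR adjusted p = 0.658).

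The type IX chains, which coat the fibrils of cartilage, were rare. Col9a3 ran from 0.469 through 2.703 to 5.83 CPM in WT and from 0.327 through 0.787 to 1.61 CPM in Tn tumours (-1.78 ± 0.54, edgeR adjusted p = 0.0223). It did not pass without Tn tumour 4, Tn tumour 6 and WT tumour 6 together (edgeR adjusted p = 0.101). Nor did it pass with a term for the replicate number (edgeR adjusted p = 0.145). Col9a2 ran from 0.0165 through 1.89 to 5.88 CPM in WT and from 0.0891 through 0.428 to 1.10 CPM in Tn tumours and did not pass (-2.13 ± 0.90, edgeR adjusted p = 0.0815). Without WT tumour 1 it passed, and it passed with DESeq2, with the lowest adjusted p at 0.0174. Col9a1 was called lower (-2.75 ± 1.00, edgeR adjusted p = 0.0476), but at most 4.43 CPM in any tumour, and it was called under 5 of 19 alternatives, 2 of them among the 12 that leave out a tumour. WT tumours 3 and 6 were the highest for Col9a2 and Col9a3 alike. Of 7 chondrocyte markers, Acan, Hapln1, Matn1, Cnmd and Ucma were under 1 CPM in all 12 tumours. Comp reached 4.62 CPM and did not pass (-0.98 ± 0.76), and Sox9, which carcinoma cells can also express, was higher in Tn tumours, from 28.7 to 83.6 CPM in WT and from 59.2 to 105 CPM in Tn tumours (0.71 ± 0.22, edgeR adjusted p = 0.0232). Exons of Tcfl5 cover 11.8% of the exonic bases of Col9a3. Col20a1 ran from 0.810 through 1.03 to 1.92 CPM in WT and from 0.913 through 1.57 to 2.66 CPM in Tn tumours and did not pass (0.63 ± 0.29, edgeR adjusted p = 0.108). It passed with limma voom, without WT tumour 1 or without Tn tumour 2 (lowest adjusted p = 0.0316).

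In the remaining class 6 of 14 tested genes were lower, 1 was higher and 7 did not pass. Of all tested genes 17.4% were lower and 19.5% were higher, so the count of higher genes is not above that share. Type VI collagen is built from a Col6a1 chain, a Col6a2 chain and a further chain, most often Col6a3, and its genes did not move together. Col6a3 ran from 512 through 658.7 to 914 CPM in WT and from 141.1 through 187.4 to 338.8 CPM in Tn tumours (-1.75 ± 0.21, edgeR adjusted p = 0.000124), with no overlap. Col6a2 ran from 301.0 through 411.1 to 545.5 CPM in WT and from 238.3 through 252.9 to 318.6 CPM in Tn tumours (-0.71 ± 0.14, edgeR adjusted p = 0.00179), with WT tumour 1 inside the Tn range. Col6a1 ran from 381.1 through 516.4 to 632.6 CPM in WT and from 410.7 through 460.3 to 641.3 CPM in Tn tumours and did not pass (-0.07 ± 0.13, edgeR adjusted p = 0.698). Col6a1 and Col6a2 lie 85161 bases apart on chromosome 10 in the same direction. The alternatives to Col6a3, namely Col6a4, Col6a5 and Col6a6, form a cluster on chromosome 9. Col6a4 was called higher (2.71 ± 0.94, edgeR adjusted p = 0.039), but the value rests on Tn tumour 4, at 9.12 CPM, while the other Tn tumours held at most 0.779 CPM and WT tumours 0.191 to 0.386 CPM. Without Tn tumour 4 the log2 fold change was 0.58 (edgeR adjusted p = 0.243). The call also ended with any WT tumour left out, and it was made under 8 of 19 alternatives. Col6a5 (0.33 ± 0.38) and Col6a6 (0.34 ± 0.43) did not pass.

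Of 4 membrane-spanning collagens in the class, 3 were lower, where 17.4% of all tested genes were. Col13a1, found at cell adhesion sites, ran from 4.18 through 6.12 to 7.00 CPM in WT and from 0.785 through 1.61 to 2.75 CPM in Tn tumours (-1.85 ± 0.27, edgeR adjusted p = 0.000328). Col23a1 ran from 6.21 through 8.31 to 8.97 CPM in WT and from 0.711 through 1.38 to 5.87 CPM in Tn tumours (-1.90 ± 0.46, edgeR adjusted p = 0.00694), with Tn tumour 6 nearest to the WT group. For both genes the groups did not overlap. Col25a1, under 1 CPM throughout, was lower (-1.87 ± 0.44, edgeR adjusted p = 0.00581), though not by limma voom (adjusted p = 0.0602). Col17a1, the collagen of hemidesmosomes in basal keratinocytes, was spread widely, at 110 CPM in Tn tumour 6 and 42.5 CPM in WT tumour 6 against medians of 4.61 in Tn and 4.79 in WT tumours. It did not pass (0.83 ± 1.05), and without Tn tumour 6 the value was -1.33 (edgeR adjusted p = 0.177). Those libraries were also the highest of their groups in summed keratinocyte markers, at 3483 CPM in Tn tumour 6 and 864 CPM in WT tumour 6, and the part of these cells in the result was not tested.

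Col28a1, a chain described in peripheral nerve, ran from 0.313 through 3.92 to 9.90 CPM in WT and from 0.193 through 0.789 to 2.33 CPM in Tn tumours (-2.13 ± 0.70, edgeR adjusted p = 0.0317). Its call ended without WT tumour 5, WT tumour 6, Tn tumour 1, Tn tumour 3 or Tn tumour 5. The call also ended without the 3 libraries named above or any filter on low counts (edgeR adjusted p of at most 0.076 in these fits). With a term for the replicate number it ended too, at the highest value over all alternatives (edgeR adjusted p = 0.158). Of 5 Schwann cell genes 1 was lower, Sox10 (-2.59 ± 0.90, edgeR adjusted p = 0.0403), which is near the 17.4% lower among all tested genes. The summed level of the 5 genes overlapped at 43.6 to 125 CPM in WT and 54.4 to 101 CPM in Tn tumours. The part of Schwann cells in the result was not tested. The network-forming chains Col8a1 (-0.60 ± 0.27), Col8a2 (-0.66 ± 0.28) and Col10a1 (-0.26 ± 0.51) did not pass. Col8a1 was abundant, at 265.6 to 400.5 CPM in WT and 70.6 to 316.3 CPM in Tn tumours, while Col10a1, the chain of hypertrophic cartilage, stayed at or below 1.26 CPM and shares 20.8% of its exonic bases with Nt5dc1. Col8a2 passed with DESeq2 (adjusted p = 0.0471).

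Levels of different genes were compared per kilobase of exon. In WT tumours the highest mean level was that of Col1a1, at 795 ± 255 CPM per kilobase (SD, n = 6), followed by Col3a1 at 353 ± 126, Col1a2 at 274.2 ± 80.6, Col4a1 at 211 ± 31.1 and Col4a2 at 130 ± 16.5. In Tn tumours Col1a1 was still the highest, at 222 ± 48.9 CPM per kilobase. The order of the genes after it depended on the length used. Per kilobase of the table's exon union, Col6a1 at 111 ± 18.8 and Col4a1 at 108 ± 20.3 came next and did not differ beyond their spread, and Col3a1 came to 86.9 ± 12.8, Col18a1 to 79.3 ± 19.4 and Col1a2 to 75.1 ± 14.3, which overlap as well. Per kilobase of the canonical transcript, an alternative added after seeing the data, Col1a2 at 174 and Col3a1 at 153 came next in Tn tumours, before Col4a1 at 121 and Col6a1 at 119. By that length Col1a2 had 636 and Col3a1 622 CPM per kilobase in WT tumours. The exon union of Col1a2 holds 12426 bases and its canonical transcript 5359. From WT to Tn tumours Col6a1 went from rank 6 to rank 2 by the exon union and from rank 7 to rank 5 by the canonical transcript. Col18a1 went from rank 9 to rank 5 and from rank 8 to rank 6, and Col16a1 from rank 17 to rank 9 and from rank 16 to rank 8. The fold changes of these 3 genes did not pass the test.

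Ratios of chains within a tumour do not depend on library scaling. For 12 ratios of counts per kilobase, chosen as chains of the same trimer or partners in the same structure, 6 differed between groups. The test was an exact permutation of all assignments of tumours to groups, two-sided, adjusted over the 12 by Benjamini-Hochberg. The smallest p that this test can give is 0.00216. Differences are of mean log2 ratios, Tn minus WT, with n = 6 tumours a group. The level of a ratio depends on the gene lengths used, here the exon union, and is no measure of chain proportions. For Col1a2 that union holds 12426 bases against 5359 in the canonical transcript. The difference between groups does not depend on length. The type I ratio of Col1a1 to Col1a2 ran from 2.59 to 3.00 in WT and from 2.62 to 3.57 in Tn tumours, a difference of 0.03 (exact permutation adjusted p = 0.73). Col3a1 to Col1a1 (-0.14, exact permutation adjusted p = 0.364), Col5a2 to Col1a1 (0.03, exact permutation adjusted p = 0.829) and Col12a1 to Col1a1 (0.14, exact permutation adjusted p = 0.582) did not pass either, with overlapping groups. Neither did Col4a1 to Col4a2, from 1.55 to 1.72 in WT and from 1.56 to 1.93 in Tn tumours (0.07, exact permutation adjusted p = 0.266).

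Within type V the balance of chains differed. Col5a1 to Col5a2 ran from 0.677 through 0.906 to 0.960 in WT and from 0.983 through 1.23 to 1.66 in Tn tumours (0.53, exact permutation adjusted p = 0.00649). Within type VI, Col6a1 to Col6a2 ran from 2.01 through 2.33 to 2.42 in WT and from 3.12 through 3.60 to 3.83 in Tn tumours (0.62, exact permutation adjusted p = 0.00649). Col6a3 to Col6a1 ran from 0.405 through 0.501 to 0.529 in WT and from 0.102 through 0.162 to 0.193 in Tn tumours (-1.72, exact permutation adjusted p = 0.00649). In these 3 ratios no Tn tumour lay inside the WT range.

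Within type IV, Col4a5 to Col4a1 ran from 0.00460 through 0.00744 to 0.00949 in WT and from 0.0202 through 0.0507 to 0.0747 in Tn tumours, 5.77 times higher on the mean log2 scale (2.53, exact permutation adjusted p = 0.00649). Even so, Col4a1 exceeded Col4a5 per kilobase in every tumour. Col15a1 to Col4a1 ran from 0.221 through 0.291 to 0.321 in WT and from 0.155 through 0.213 to 0.241 in Tn tumours (-0.50, exact permutation adjusted p = 0.0156). Col18a1 to Col4a1 ran from 0.297 through 0.422 to 0.521 in WT and from 0.472 through 0.770 to 1.07 in Tn tumours (0.85, exact permutation adjusted p = 0.039). Without the 3 libraries named above, these last 2 differences shrank to -0.42 and 0.76, which missed the threshold (exact permutation adjusted p = 0.0762 and 0.0794). Col18a1 to Col4a1 also did not pass without WT tumour 2, 5 or 6 or without Tn tumour 1, 2 or 6 (highest exact permutation adjusted p = 0.0649). Col14a1 to Col12a1 did not pass (0.74, exact permutation adjusted p = 0.111), but without Tn tumour 5 it did, at 0.94 (exact permutation adjusted p = 0.0334).

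**Figure D4:**
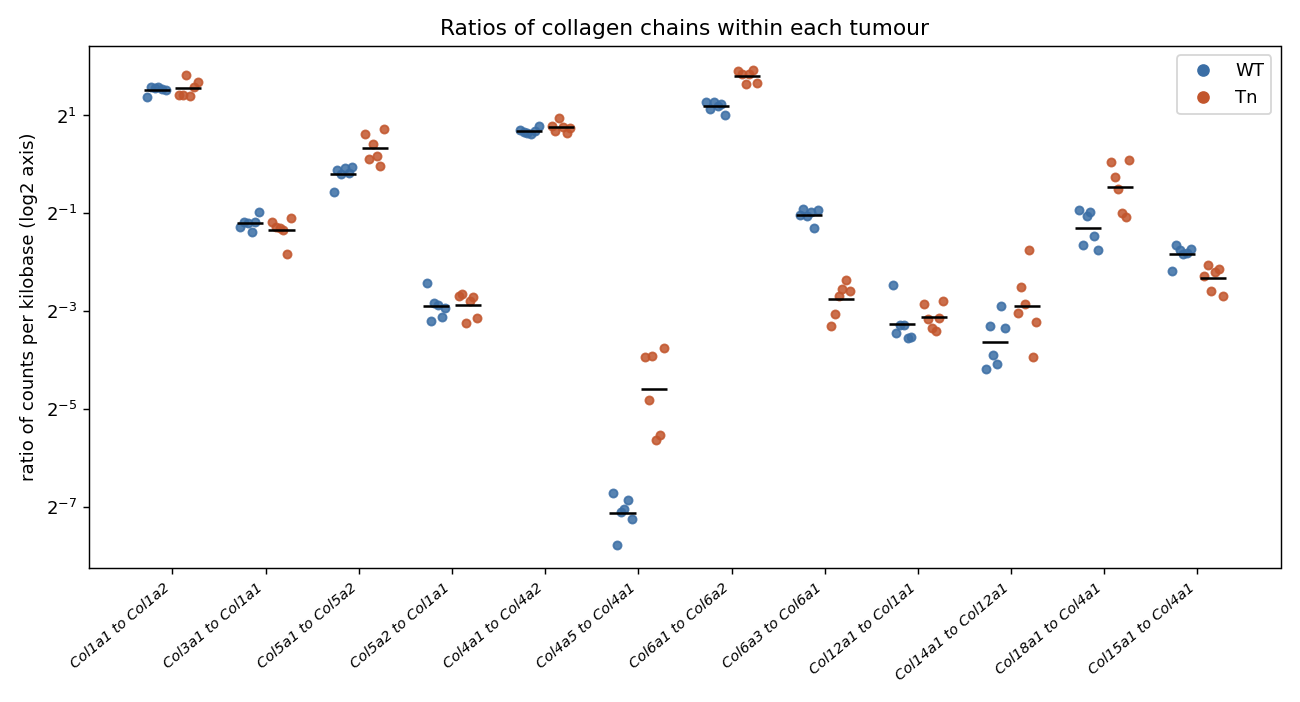
Points give the ratio of counts per kilobase of 2 chains within each tumour on a log2 axis, blue for WT and orange for Tn, with a bar at the group mean of the log2 ratios. Col6a3 to Col6a1 and Col4a5 to Col4a1 separate widely in opposite directions, while Col1a1 to Col1a2 and Col4a1 to Col4a2 overlap.

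Genes of proteins that make, join, bind and break down collagen were counted list by list, against 17.4% lower and 19.5% higher among all tested genes. For enzymes and chaperones of the endoplasmic reticulum, 8 of 22 tested genes were lower and 5 were higher, the latter near the share of all genes. The factor Creb3l1, which activates collagen genes, ran from 20.0 to 49.1 CPM in WT and from 8.12 to 14.3 CPM in Tn tumours (-1.79 ± 0.19, edgeR adjusted p = 6.61e-05). P3h4 (-1.47 ± 0.19), a partner of lysine hydroxylation, and P4ha3 (-1.56 ± 0.21), a prolyl hydroxylase subunit, were lower as well (edgeR adjusted p = 0.000175 and 0.000196). Mia3, which helps load procollagen into transport vesicles, was higher, from 128 to 151 CPM in WT and from 175 to 205 CPM in Tn tumours (0.43 ± 0.06, edgeR adjusted p = 0.000239). The summed level of the list overlapped, at 3465 to 4388 CPM in WT and 2993 to 4349 CPM in Tn tumours. The median log2 fold change of the list was -0.15.

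Outside the cell the direction was more even. Of 12 tested genes for propeptide cleavage and cross-linking, 8 were lower and 0 were higher, with a median log2 fold change of -1.08. Adamts2, which removes the amino-terminal propeptide of fibrillar collagens, ran from 118 to 193 CPM in WT and from 47.3 to 71.9 CPM in Tn tumours (-1.45 ± 0.13, edgeR adjusted p = 2.04e-05). Of the 5 lysyl oxidases, which cross-link fibrils, 4 were lower, and Loxl3 did not pass (0.19, edgeR adjusted p = 0.426). Lox ran from 165 to 445 CPM in WT and from 30.6 to 105 CPM in Tn tumours (-2.25 ± 0.30, edgeR adjusted p = 0.000234), with Loxl1 at -1.30 ± 0.15 and Loxl2 at -1.98 ± 0.26 (edgeR adjusted p = 9.46e-05 and 0.000179). Of 7 collagen-degrading proteases 4 were lower and 0 were higher: the lysosomal cathepsin K gene Ctsk (-3.64 ± 0.35), Mmp2 (-1.65 ± 0.23), Mmp9 (-2.20 ± 0.50) and Mmp13 (-0.66 ± 0.24), with edgeR adjusted p from 3.99e-05 to 0.0447. The median log2 fold change of these 7 was -0.66, and their summed level ran from 2904 to 5089 CPM in WT and from 939 to 2341 CPM in Tn tumours.

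Of 11 tested collagen receptors 4 were lower and 3 were higher, with a median log2 fold change of -0.11. At this number of genes, neither count is read as a difference from all tested genes (17.4% lower, 19.5% higher). Mrc2, an endocytic receptor that takes up collagen, was lower (-1.10 ± 0.13, edgeR adjusted p = 0.000107). Itga11, the integrin chain by which fibroblasts hold fibrillar collagen, was lower (-1.50 ± 0.27, edgeR adjusted p = 0.00116), as was Oscar, a receptor of the osteoclast lineage, from 1.55 to 5.95 CPM in WT to at most 0.460 CPM in Tn tumours (-4.93 ± 0.87, edgeR adjusted p = 0.00117). Itga1, whose integrin binds type IV collagen, was higher, from 47.2 to 76.6 CPM in WT and from 107 to 190 CPM in Tn tumours (1.29 ± 0.16, edgeR adjusted p = 0.000129). Among non-collagen proteins of basement membranes, 10 of 15 were lower and 0 were higher (median log2 fold change -1.05), including the laminin and nidogen genes Lama1 (-2.11 ± 0.24), Nid1 (-1.37 ± 0.18), Lama2 (-1.70 ± 0.25) and Lama4 (-1.03 ± 0.17) at edgeR adjusted p from 7.94e-05 to 0.000745.

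Markers of the cells that make collagen also differed between groups. The counts below stand against 17.4% lower and 19.5% higher among all tested genes. Of 13 fibroblast markers 11 were lower and 1, Pdgfra, was higher (1.03 ± 0.21, edgeR adjusted p = 0.00247), with a median log2 fold change of -1.29, and their summed level ran from 936 to 1575 CPM in WT and from 564 to 691 CPM in Tn tumours. Pericyte and smooth muscle markers were lower in 8 of 10 (490 to 900 CPM in WT, 206 to 510 CPM in Tn tumours) and endothelial markers in 7 of 9 (324 to 571 CPM in WT, 221 to 443 CPM in Tn tumours), with 0 higher in either list. Adipocyte markers were lower in 1 of 8 (23.8 to 2402 CPM in WT, 36.2 to 520 CPM in Tn tumours), and skeletal muscle markers in 0 of 7, neither above the share of all genes. All 8 adipocyte markers had log2 fold changes below 0, with a median of -1.97, and their levels were widely spread among WT tumours. Macrophage markers were higher in 3 of 5 and lower in 0, with a sum of 484 to 766 CPM in WT and 679 to 1906 CPM in Tn tumours. The fibroblast sum, like most fibrillar genes that fell, was lowest among WT in tumour 1 and highest in tumour 2. In the Tn group it was highest in tumour 5 (691 CPM), as were 6 of the 9 fibrillar genes. Its lowest Tn value was in tumour 1 (564 CPM), while tumour 6, the lowest Tn tumour for 6 of the 9, stood at 668 CPM. Much of the sum in tumour 6 came from Pdgfra (210 CPM) and Dcn (141 CPM). Both were highest there among Tn tumours, as was Pdpn (28.2 CPM). Lrrc15 (33.7 CPM), Mfap5 (11.2), Pdgfrb (42.1), Fap (1.56) and Clec3b (0.193) were instead lowest there, and the remaining markers were at neither end. The part of these cells in the collagen results was not tested.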

How the data were processed

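RNA-seq of 12 tumours (6 WT, 6 Tn) was used. The deposited file holds counts of reads per gene, which the authors did not normalise, per the file headers. They use the genes of the Ensembl 112 annotation on GRCm39 and were made with featureCounts 2.1.1 without strand, so overlapping genes cannot be told apart. The command requires both ends of a pair to map and has no option that counts a pair once. Per the submitters' processing notes, reads were trimmed with fastp 0.23 and aligned with STAR 2.7.11a. Per the labels, libraries were poly(A) selected and carry 1 batch label, so no batch term was used.

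Symbols came from GENCODE M39 (56630 of 57186 identifiers matched). Overlaps with exons of other genes compare the counted exons of each collagen with GENCODE M39 exons of the other genes. All genes were fitted together in edgeR 4.0.16 (R 4.3.3; TMM, filterByExpr, robust quasi-likelihood, two-sided, Benjamini-Hochberg over 19255 genes, threshold 0.05), and the biological coefficient of variation was 0.358. No libraries of a group agreed within sampling noise (lowest chi-square over its degrees of freedom 41.4). CPM are TMM-scaled, and the SE is the log2 fold change over the root of the F statistic. The fit was also run on simulated counts in which few genes changed, as many up as down. That setting differs from these data, where 36.8% of tested genes passed, so it gives no error rate for them. Chain ratios used exact permutation. Genes given in full are up to 5 per class with the smallest p and a mean of at least 1 CPM, called genes that go against most called members of their class, the chains of ratios, and up to 4 genes per pathway list. The alternatives changed the scaling (RLE, upper quartile), the tool (DESeq2 1.42.0, voom of limma 3.58.1), the filter, the threshold (0.01), added a replicate block, or left out each tumour in turn or 3 libraries (Tn tumours 4 and 6, WT tumour 6, highest in B cell, keratinocyte and adipocyte genes in an earlier analysis) together. The family, lists and alternatives were chosen with earlier results of these data known.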

Additional observations from a re-analysis of the deposited data

Results flagged for a closer look

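In 15 of 106 groups of 6 tumours examined, a tumour stood apart from its group by Dixon's criterion, which compares the gap to the nearest neighbour with the range of the group. It was applied to log2 CPM, with a prior count of 2, and to log2 ratios. The values printed below are not on the log2 scale, on which gaps near 0 CPM are wider. Chance alone gives about 1 in 20. The members share libraries, so these tumours are not independent events. WT tumour 1 was apart in 7 of them. It was the lowest WT tumour for Col13a1 (4.18 CPM), Col28a1 (0.313 CPM) and Col9a2 (0.0165 CPM), and for the ratios Col1a1 to Col1a2 (2.59), Col5a1 to Col5a2 (0.677) and Col15a1 to Col4a1 (0.221), and it was the highest for Col12a1 to Col1a1 (0.182).

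WT tumour 2 was the lowest WT tumour for Col4a5, at 6.65 CPM, and the highest for Col12a1, at 1687 CPM. WT tumour 6 was the highest for Col16a1, at 301.0 CPM, and WT tumour 5 the lowest for Col6a3 to Col6a1, at 0.405. Among Tn tumours, tumour 6 was the highest for Col17a1, at 110 CPM, and the lowest for Col8a1, at 70.6 CPM, and Col9a1, at 0.0148 CPM. Tn tumour 5 was the lowest for Col3a1 to Col1a1, at 0.281.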

How the results depend on the processing

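Of the 26 collagens called, 17 lower and 2 higher (Col4a5 and Col4a6) passed under every alternative run, and 7 (Col14a1, Col24a1, Col25a1, Col28a1, Col6a4, Col9a1 and Col9a3) failed under at least 1. The number lower ran from 18 to 25 and the number higher from 2 to 4. At a threshold of 0.01, 2109 of all genes were higher and 1916 lower. Among collagens that did not pass, the sign turned for Col16a1 without Tn tumour 4 (0.022), Col10a1 without WT tumour 6 (0.0617), Col6a1 without WT tumour 2 (0.00994) or without 3 libraries (0.0573), and Col17a1 with limma voom (-0.217), without 3 libraries (-0.347) or without Tn tumour 6 (-1.33). Over all alternatives the lowest values of Col16a1, Col10a1 and Col6a1 were -0.174, -0.801 and -0.163, and the highest of Col17a1 was 1.74. Ratio differences with each tumour left out ran from -0.0268 to 0.127 for Col5a2 to Col1a1, from -0.0224 to 0.0663 for Col1a1 to Col1a2 (-0.0445 from medians), from 0.74 to 0.98 for Col18a1 to Col4a1 and from 0.51 to 0.94 for Col14a1 to Col12a1. Without 3 libraries, Col18a1 to Col4a1 was 0.76 and Col15a1 to Col4a1 was -0.42. The cause of these changes was not tested. The replicate numbers did not pair the tumours: same-numbered tumours correlated at -0.125 to 0.158, and 0 of 6 correlated best with their own number. With the replicate block, 18 collagens were lower and 2 higher. Under the block the 6 ratios that passed kept their differences by construction (0.53, 2.53, 0.62, -1.72, -0.50 and 0.85), and none of the 12 passed, at exact adjusted p of 0.075 or more, where the smallest raw p possible is 0.03125. Genes under 1 CPM rest on few counts.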
